A study of Mus musculus with 34 samples.

Results

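RNA sequencing libraries of 6-month-old female mice that carry the muscle label plantaris were examined here: 8 of the 34 libraries of the series, 4 from mice that ran and 4 from sedentary mice. They were chosen by their labels alone, with no use of measured values. The 4 runners had 8 weeks of PoWeR, wheel running against added weight, in which mice run at will and the load is raised in steps. Training ended with a wheel lock of 24 h before tissue was taken, and the mice were fasted overnight. The sedentary mice were of the same age and had no PoWeR. Strain and genotype are not given in the sources used here, and nothing in the labels ties each library to an animal of its own. The p-values below therefore speak only of the spread among libraries, which may in part be technical. For single genes of the PoWeR contrast that spread was estimated over 17 libraries labelled plantaris, 9 of them from 24-month-old mice. The labels of these 9 conflict: their titles say soleus and their source name says plantaris. They were taken as plantaris by the source name. Total RNA of whole muscle was sequenced, and the 8 libraries held 19676766 to 26250461 counts. Values below are CPM, counts scaled to a common library size, given for replicates 1 to 4 in that order. The young soleus, with 4 PoWeR and 4 sedentary libraries, and the 18 libraries of 24-month-old mice serve only for comparison.

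Hindlimb muscle is built of slow and fast fibres. Slow fibres, which dominate the soleus, carry the myosin heavy chain Myh7, the calcium pump Atp2a2 and slow troponins. Fast fibres, which dominate the plantaris, carry Myh4, Myh1 and Myh2, the pump Atp2a1 and the calcium buffer parvalbumin. Small membrane peptides, phospholamban (Pln), sarcolipin (Sln) and myoregulin (Mrln), bind these pumps and slow the return of calcium to its store. Endurance work is known to act on capillary growth through Vegfa, on fuel choice, on mitochondria and on the genes of fibre type.

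The muscle label did not match the fibre genes. In the sedentary libraries the heavy chain Myh7 held 69.6, 65.5, 66.3 and 70.6% of the summed counts of Myh7, Myh2, Myh1 and Myh4, whose transcripts are of similar length. In the PoWeR libraries the share was 73.0, 66.5, 69.3 and 69.6%. Myh4, the fastest chain, held 0.0292 to 0.136% in all 8. The groups did not differ beyond the spread of their libraries for Myh7 (68.0 ± 2.48% against 69.6 ± 2.64%, SD, n = 4 and 4, exact two-sided permutation p = 0.429), and the other chains had exact p values of 0.286 to 0.857. Adjusted over the 4 chains, p was 0.857 for each, and the smallest unadjusted p that 4 against 4 allows is 0.0286.

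Set against young sedentary soleus, the sedentary libraries labelled plantaris had no fast fibre gene that was higher. Of 15 fast fibre genes 1 was lower, the troponin Tnnc2, and of 13 slow fibre genes 2 were lower, Tnnc1 and Tpm3. The medians were -0.07 and -0.36 on the log2 scale, beside 0.02 over all genes. In 24-month mice the same contrast set libraries that are plantaris by source name, though not by title, against soleus. It had 14 fast fibre genes higher and all 13 slow ones lower, with medians of 1.87 and -5.29. Parvalbumin (Pvalb) averaged 30.2 CPM in these sedentary libraries, 45.0 CPM in young soleus and 4771 CPM in aged plantaris. Over all genes, 493 of 15132 differed between the labels at 6 months (3.26%, of which 1.24% higher and 2.02% lower, by a Benjamini-Hochberg adjusted p under 0.05 in edgeR) and 4871 of 14823 at 24 months (32.9%, with 15.8% higher and 17% lower). The count at 6 months rests on single libraries: it was 109 to 138 without sedentary replicate 3 or without soleus replicate 2 or 3, 143 without soleus replicate 4 and 301 without sedentary replicate 2.

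**Figure D1:**
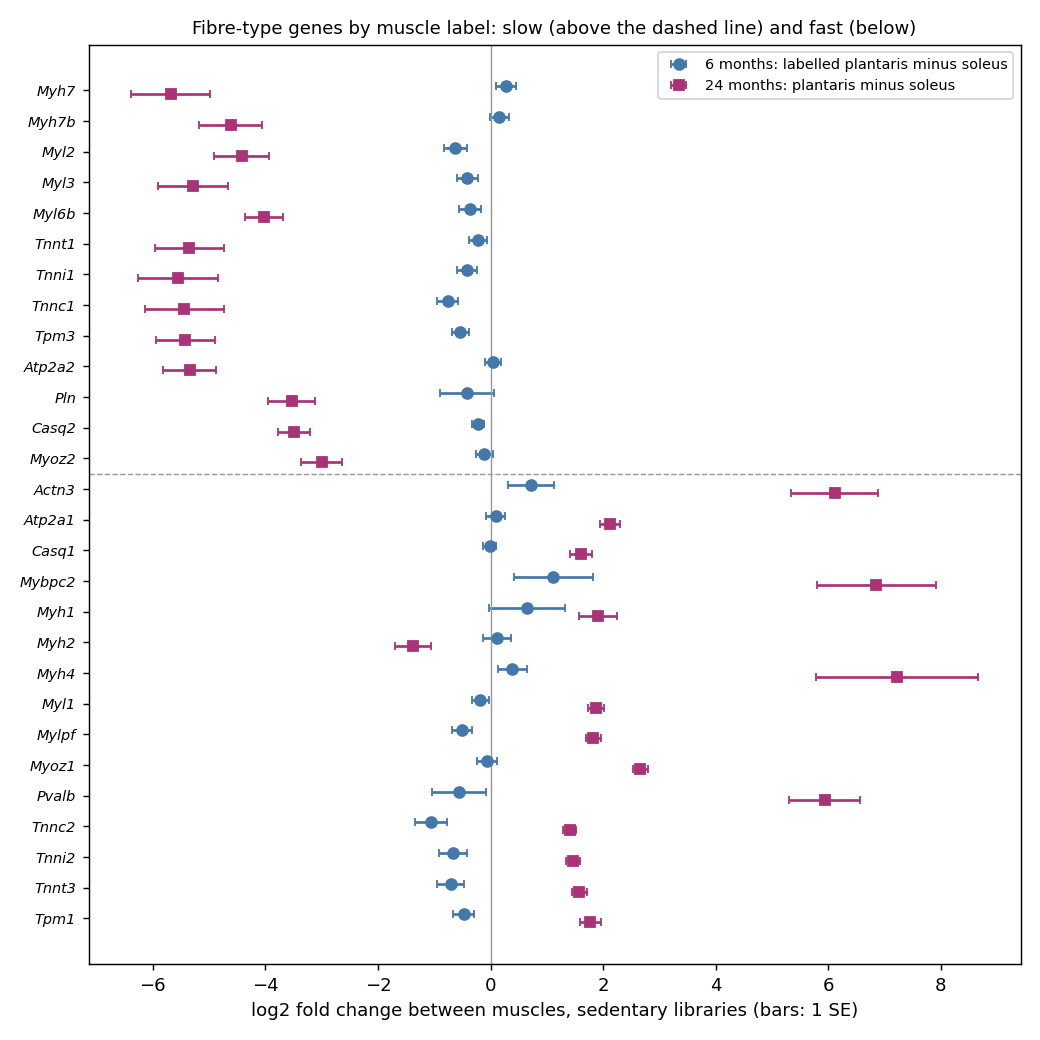
Log2 fold change (x axis, bars 1 SE) between muscle labels in sedentary mice for each slow and fast fibre gene (y axis), at 6 months (circles, labelled plantaris minus soleus) and at 24 months (squares). The 6-month points lie near 0, while at 24 months every slow gene is below 0 and 14 of 15 fast genes are above it, Myh2 being the exception.

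The leading differences between the 6-month labels lay outside the fibre genes. The smallest adjusted p among genes higher than in soleus belonged to the non-coding Gm46620 (0.71 on the log2 scale), the G protein subunit Gna11 (0.56), the exchange factor gene Iqsec1 (0.79) and the pseudogenes Gm8934 (2.32) and Mrip-ps (0.88). Those lower were the ATP synthase subunit Atp5g2, at 0.552 against 5.66 CPM, the ribosomal proteins Rps23 (-1.36) and Rpl27 (-1.63), and the pseudogenes Gm6204 (-1.49) and Gm5641 (-0.69). Ribosomal protein genes and processed pseudogenes have near-identical copies, so the split of reads between them is uncertain. Of 53 nuclear respiratory chain genes 9 were lower (median -0.57), and of 22 ribosomal protein genes 4 (median -0.52), where 2.02% of all genes were. Among the sedentary libraries labelled plantaris, replicate 3 was the lowest for both lists. The counts of the 2 sets of libraries differed by more than sampling noise in all 64 pairs, with a chi-square per degree of freedom of 28.7 or more, so no library labelled plantaris repeats a soleus library. Because the fibre genes go against the muscle label, the 8 libraries are called libraries labelled plantaris throughout.

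The libraries of a group did not resemble each other in all respects. CT010467.1, an rRNA repeat gene, held 3.71, 3.41, 0.578 and 3.13% of counts in the sedentary and 0.242, 0.326, 2.73 and 0.282% in the PoWeR libraries. Sedentary replicate 3 thus sat with PoWeR replicates 1, 2 and 4, under 0.7%, and PoWeR replicate 3 sat with the other sedentary libraries. The exact permutation p between the groups was 0.0571, and 0.343 when adjusted over 6 gene classes. Mitochondrially encoded mRNAs held 16.7, 15.3, 9.12 and 16% of sedentary counts and 11.2, 9.61, 13.3 and 12.8% of PoWeR counts, and mitochondrial rRNA held 2.36% in sedentary replicate 3 and 0.566 to 1.12% in the other 7. Results are therefore also given within libraries of like repeat share: sedentary 3 against PoWeR 1, 2 and 4 (low share), and sedentary 1, 2 and 4 against PoWeR 3 (high share). The low-share and high-share values each rest on a lone library in a group, so they carry no test.

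PoWeR and sedentary libraries labelled plantaris differed in 34 of 15280 genes by the quasi-likelihood test of edgeR (0.223%), 23 higher with PoWeR (0.151%) and 11 lower (0.072%). Passed, called, rose and fell refer to that adjusted p threshold in a fit of the 17 libraries labelled plantaris, the 9 aged ones included. Among called genes whose sedentary or PoWeR mean reached 1 CPM, the rises with the largest folds were those of Nrcam, Ano3 and Sv2b, genes of neuronal membranes, and of the signalling genes Ndrg4 and Sh2d4a. The fall with the largest fold was that of phospholamban, Pln, and the falls took in the angiogenic factor Vegfa, the glucose-responsive Txnip and the stress factor Atf5. The 2 groups did not overlap in any of the 34 genes. Among all genes tested, the PoWeR libraries were all above the sedentary ones in 602 (3.94%) and all below in 568 (3.72%).

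The number of calls rests on the libraries. It was 1 without PoWeR replicate 2 or sedentary replicate 2, 2, 7, 9 and 16 without sedentary 4, sedentary 1, PoWeR 4 and PoWeR 1, and 130 and 227 without PoWeR replicate 3 and sedentary replicate 3, the pair that crosses the groups in repeat share. With the repeat class as a term only Sh2d4a remained called, and with the log2 repeat share as a term no gene was. With the class term the other 33 kept their sign, with edgeR adjusted p values of 0.0656 to 0.271. DESeq2 called 126 genes higher and 99 lower, and limma with quality weights 571 and 798. Of the 34 genes, 8 were still called in at least 4 of the 8 fits that omitted a single library. Ndrg4, Txnip, Vegfa and Atf5 were each still called in 2 of these fits. In the aged plantaris 23 of the 34 had the same direction and none passed.

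Nrcam encodes a cell adhesion molecule of the immunoglobulin family, known from nodes of Ranvier and growing axons (GRCm38 chromosome 12, 44328885 to 44601964, plus strand). It stood at 1.57, 0.761, 1.32 and 0.892 CPM in the sedentary and at 5.44, 18.5, 8.30 and 9.48 CPM in the PoWeR libraries. All 4 PoWeR libraries were above the sedentary ones, PoWeR replicate 2 by the widest margin. The mean went from 1.14 ± 0.375 to 10.4 ± 5.64 CPM (SD, n = 4 and 4), a log2 fold change of 3.21 ± 0.47 (SE) with an edgeR adjusted p of 0.0106.

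Ano3, a gene of the anoctamin family of membrane proteins (chromosome 2, 110655201 to 110950923), had 2.02, 2.69, 3.35 and 1.70 CPM in the sedentary libraries. In the PoWeR libraries it had 6.56, 13.4, 15.5 and 10.6 CPM. The groups did not overlap and the log2 fold change was 2.24 ± 0.38 (SE; edgeR adjusted p = 0.0175). Sv2b, a glycoprotein of synaptic vesicles (chromosome 7, 75114894 to 75309262), had 2.30, 1.83, 1.77 and 1.91 CPM in sedentary and 6.12, 15.2, 6.72 and 6.93 CPM in PoWeR libraries. Again PoWeR replicate 2 stood apart upward, and the other 3 lay close together, all above the sedentary range. The log2 fold change was 2.18 ± 0.39, with an edgeR adjusted p of 0.0261.

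Abat, the transaminase that breaks down the transmitter GABA (chromosome 16, 8513429 to 8621568), completes the called members of the list of neural adhesion and excitability genes. Its sedentary levels of 19.8, 20.4, 16.5 and 19.0 CPM rose to 46.2, 72.3, 53.4 and 46.8 CPM with PoWeR (1.54 ± 0.25, edgeR adjusted p = 0.0175). Of the 30 genes of that list 24 were tested, 4 rose and none fell, and the median over the 24 was 0.14 beside 0.01 over all genes. The muscle sodium channel Scn4a, for example, had 303, 329, 364 and 285 CPM in sedentary and 270, 361, 300 and 346 CPM in PoWeR libraries, with overlapping groups. Genes of the neuromuscular junction (19 tested) had no call, nor had 16 genes of the denervation response. Schwann cell markers summed to 83.9 to 118 CPM in sedentary and 56.1 to 88.8 CPM in PoWeR libraries. None of 10 was called, and all 10 were below 0 in log2 fold change. In a fit of the 16 young libraries 1 marker passed as lower, where 1.16% of all genes passed. With the repeat class as a term 1 did, where 0.912% passed. The part of these markers in these results was not tested. In whole muscle, fewer cells of a type and less RNA per cell cannot be told apart.

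Further membrane and guidance genes were among the rises. Lrrn1, a leucine-rich repeat membrane protein, had 32.7, 34.4, 39.5 and 30.0 CPM in sedentary and 59.9, 86.4, 52.2 and 64.1 CPM in PoWeR libraries (0.95 ± 0.17, edgeR adjusted p = 0.0261). Sema3c, a secreted semaphorin that guides axons and vessels, had 34.2, 32.4, 40.2 and 34.9 against 54.0, 65.5, 45.3 and 57.2 CPM (0.65 ± 0.12). Gnal, a stimulatory G protein alpha subunit known from olfaction, had 10.5, 10.8, 14.6 and 8.15 against 22.7, 59.1, 39.2 and 23.9 CPM (1.72 ± 0.30). The 4 PoWeR libraries were above the sedentary ones in each case, with the smallest gap in Sema3c, between sedentary replicate 3 and PoWeR replicate 3.

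Sh2d4a, an SH2 domain adaptor (chromosome 8, 68276567 to 68347699), had the lowest adjusted p of the 34. It stood at 4.88, 5.18, 6.07 and 4.33 CPM in sedentary and at 16.9, 24.4, 23.4 and 16.8 CPM in PoWeR libraries. The groups are tight and far apart, and the log2 fold change was 2.0 ± 0.26 (SE) with an edgeR adjusted p of 0.00386. It passed in all 8 fits that omitted a single library, and its edgeR adjusted p was 0.0332 with the repeat class as a term but 0.0575 with the log2 repeat share as a term. The low-share libraries alone gave a difference of 1.66 and the high-share libraries 2.26 on the log2 scale.

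Ndrg4, a member of the N-myc downstream-regulated family (chromosome 8, 95676980 to 95715119), was the most abundant of the large rises. It had 41.7, 29.5, 36.0 and 27.0 CPM in sedentary and 129, 185, 97.7 and 132 CPM in PoWeR libraries, with no overlap (2.03 ± 0.38, edgeR adjusted p = 0.0431). Hdac11, a histone deacetylase that also removes fatty acyl groups from lysine (chromosome 6, 91156665 to 91174692), had 7.85, 7.97, 6.22 and 6.67 against 15.3, 15.5, 17.4 and 13.6 CPM (1.12 ± 0.19, edgeR adjusted p = 0.0175). Hdac11 was still called in 5 of the 8 fits that omitted a single library.

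Receptors were among the smaller rises. Fgfr1, a fibroblast growth factor receptor, had 48.5, 39.4, 42.5 and 52.9 CPM in sedentary and 77.2, 78.6, 63.8 and 76.8 CPM in PoWeR libraries (0.70 ± 0.14). Tnfrsf19, a receptor of the tumour necrosis factor family, had 10.9, 14, 9.83 and 10.9 against 18.4, 22.8, 20.9 and 21.2 CPM (0.88 ± 0.16). The plasma membrane calcium pump Atp2b3 had 3.03, 2.89, 2.64 and 2.80 against 4.53, 6.02, 5.93 and 6.55 CPM (1.03 ± 0.19). Other rises were those of Trim7, a ubiquitin ligase that binds glycogenin (0.76), the centrosomal gene Cep97 (0.79) and the endonuclease subunit Slx1b (1.20). Fgfr1 was lowest among PoWeR libraries in replicate 3, as Sema3c and Ndrg4 were.

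Of the calcium pump peptides, Pln fell. Pln (chromosome 10, 53337667 to 53345987, plus strand) had 17.3, 18.7, 16.6 and 23.2 CPM in sedentary and 5.68, 1.83, 10.7 and 3.95 CPM in PoWeR libraries. PoWeR replicate 3 was the highest of its group and PoWeR replicate 2 the lowest, and the groups did not overlap. The mean went from 18.9 ± 2.97 to 5.54 ± 3.77 CPM, a log2 fold change of -1.77 ± 0.35 (SE; edgeR adjusted p = 0.0405). Pln was still called in 2 of the 8 fits that omitted a single library, and it missed the threshold in the 16 young libraries (adjusted p = 0.13). Pln lies within the span of Cep85l on the opposite strand, which had 51.5, 56.2, 97.1 and 90.7 CPM in sedentary and 161, 161, 102 and 144 CPM in PoWeR libraries, the opposite direction to Pln.

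Sln was higher in the PoWeR libraries without passing in the fit of 17. It had 65.1, 45.4, 28.0 and 56.5 CPM in sedentary and 117, 130, 240 and 112 CPM in PoWeR libraries, so the groups did not overlap. The fit of 17, in which the aged plantaris libraries share in the estimate of spread, gave 1.63 ± 0.81 (edgeR adjusted p = 0.444). The fit of the 16 young libraries gave 1.62 ± 0.27 (adjusted p = 0.00789), and with the repeat class as a term the adjusted p was 2.49e-08. Of all genes, 1.16% passed in the 16 young libraries and 0.912% with the term. Of the 34 called genes, 28 and 23 passed there. These fits hold the same 8 libraries by which the 34 were chosen, so this is no separate support. Mrln overlapped between the groups, at 2.47, 1.68, 1.09 and 2.12 CPM against 1.35, 1.40, 2.05 and 2.13 CPM. The slow pump Atp2a2, which these peptides bind, overlapped between the groups and had 11740, 11566, 12334 and 10026 CPM in sedentary and 10343, 11703, 12334 and 9645 CPM in PoWeR libraries. Among 22 genes of calcium release and uptake, Pln was the only call, and the median was -0.01.

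Myl6b, a light chain of slow and embryonic muscle (chromosome 10, 128494157 to 128498685), was the only contractile gene to rise. Its levels were 132, 88.2, 83.6 and 85.5 CPM in sedentary and 192, 254, 193 and 135 CPM in PoWeR libraries. Sedentary replicate 1 stood above its group, and PoWeR replicate 4 lay just above it. The log2 fold change was 1.004 ± 0.19 (edgeR adjusted p = 0.0330). Of 13 slow fibre genes, Myl6b rose and Pln fell, and the median was -0.04. Of 15 fast fibre genes none passed, with a median of -0.22. Mybpc2, the fast myosin binding protein C, was the widest-ranging: 12.7, 71.2, 116 and 33 CPM in sedentary and 10.01, 4.93, 13.5 and 1.79 CPM in PoWeR libraries, with overlapping groups and an edgeR adjusted p of 0.0871.

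**Figure D2:**
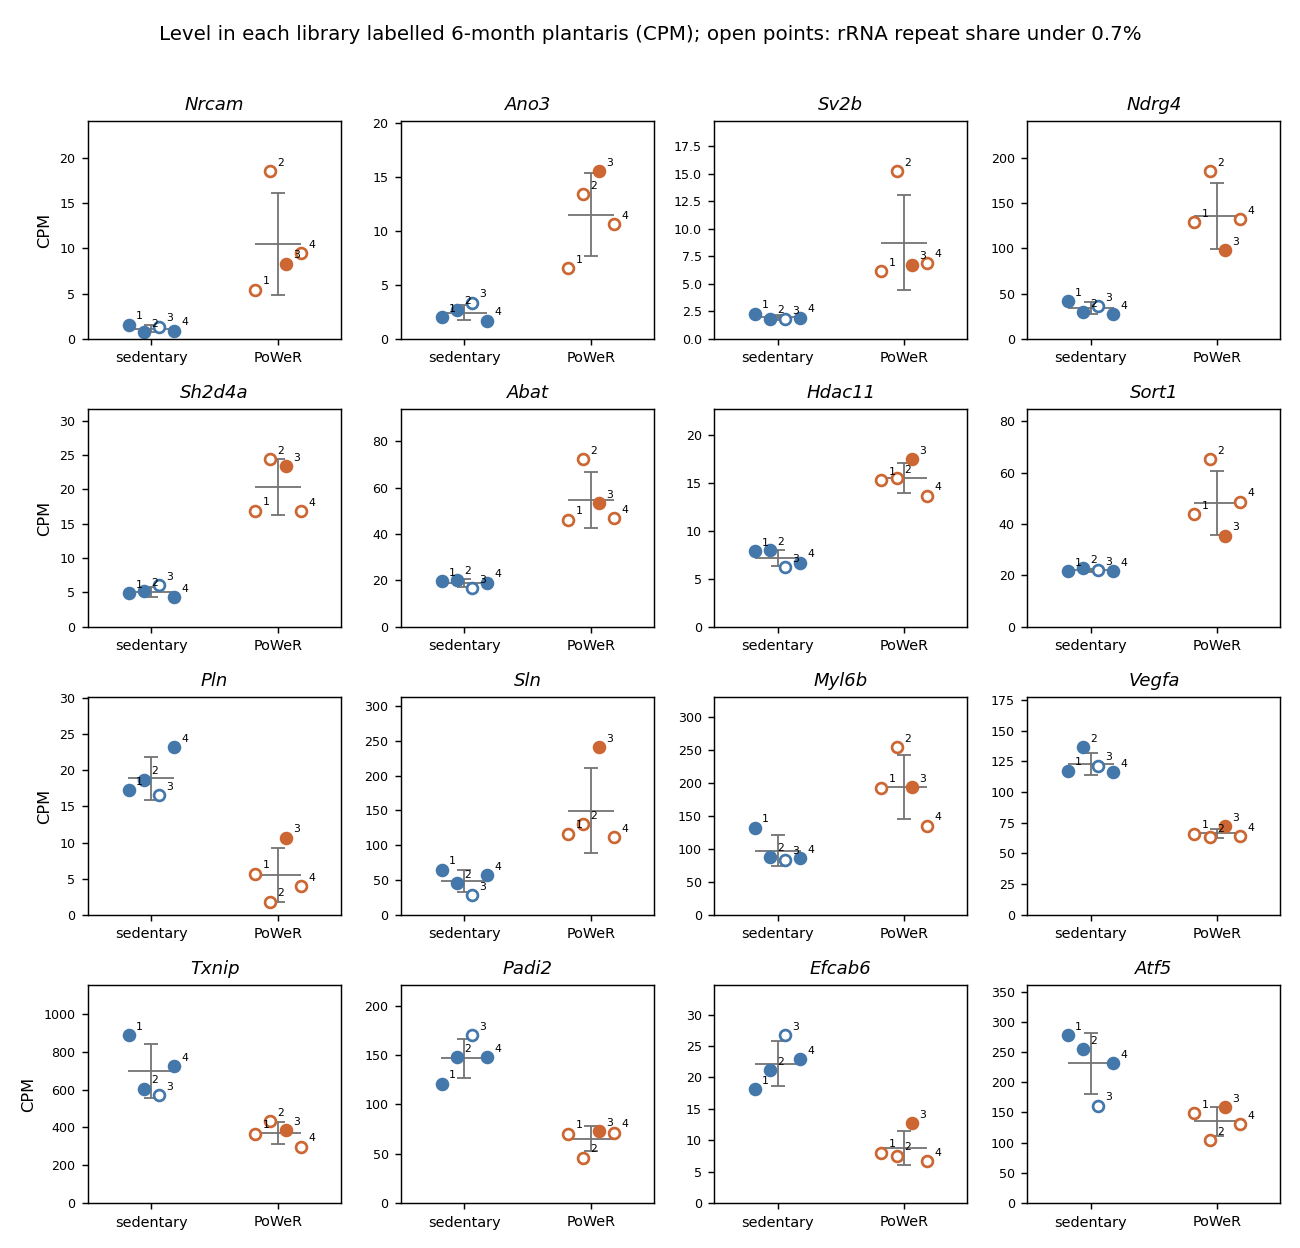
CPM (y axis, from 0) of 16 genes in each of the 4 sedentary and 4 PoWeR libraries; numbers are replicates, open points are the 4 libraries under 0.7% in rRNA repeat share, and bars show mean and SD. Nrcam, Sh2d4a and Vegfa are separated by wide gaps, while the nearest libraries of the groups almost meet for Atf5 and Myl6b.

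Metabolic genes moved in both directions. Sort1, sortilin, which sorts the glucose transporter into its insulin-responsive stores (chromosome 3, 108284082 to 108361511), had 21.5, 22.9, 22.1 and 21.6 CPM in the sedentary libraries. With PoWeR it had 43.8, 65.1, 35.5 and 48.6 CPM, all above the narrow sedentary range (1.14 ± 0.18, edgeR adjusted p = 0.0154). The transporter gene itself, Slc2a4, had 450, 497, 453 and 479 CPM in sedentary and 449, 479, 516 and 449 CPM in PoWeR libraries, which overlap.

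Txnip, the thioredoxin-binding arrestin that lowers glucose uptake (chromosome 3, 96557957 to 96561883, plus strand), fell. It had 887, 605, 569 and 724 CPM in sedentary and 367, 433, 385 and 297 CPM in PoWeR libraries. The lowest sedentary library was above the highest PoWeR library, and the log2 fold change was -0.90 ± 0.18 (edgeR adjusted p = 0.0341). Its relative Arrdc4, also a glucose-responsive arrestin, had 6.11, 6.50, 8.44 and 7.09 against 5.92, 6.67, 4.95 and 7.27 CPM, with overlapping groups (-0.18 ± 0.24). Of the 19 genes of glucose uptake and carbohydrate sensing, Sort1 rose, Txnip fell and the others did not pass.

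Txnip transcription is known to follow glucose through a paired element bound by MondoA and ChREBP, so the 250 bases before the start sites of both arrestins are shown (RefSeq, GRCm38.p6). In the Txnip sequence, chr3:96557707-96557956 on the plus strand, capitals mark the match to a pair of CACGNG sites 5 bases apart, searched on both strands, which begins 85 bases before the start site. In the Arrdc4 sequence, chr7:68749239-68749488 on the minus strand, no such match occurs and capitals mark a single CACGTG, 193 bases before the start site.
Txnip: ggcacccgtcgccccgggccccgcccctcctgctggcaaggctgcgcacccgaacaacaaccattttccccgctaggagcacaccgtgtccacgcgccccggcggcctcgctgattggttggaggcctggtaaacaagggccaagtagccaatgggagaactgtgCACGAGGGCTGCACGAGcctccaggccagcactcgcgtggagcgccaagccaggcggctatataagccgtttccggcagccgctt
Arrdc4: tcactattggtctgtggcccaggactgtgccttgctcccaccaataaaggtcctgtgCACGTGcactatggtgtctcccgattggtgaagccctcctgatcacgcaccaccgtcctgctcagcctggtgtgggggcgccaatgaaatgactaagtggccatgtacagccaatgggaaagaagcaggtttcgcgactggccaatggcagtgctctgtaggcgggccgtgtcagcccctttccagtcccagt
The paired element occurs in 15 of 32851 mouse promoters of the same length (0.0457%), and CACGTG in 6.02%. CCAAT, read on both strands, occurs in 33.8% of promoters, with 2 matches in Txnip and 6 in Arrdc4. These matches describe the letters only.

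Enzymes of reductive and sterol metabolism were among the rises. H6pd, which makes NADPH inside the endoplasmic reticulum, had 21.9, 22.2, 23.9 and 24.0 CPM in sedentary and 41.2, 46.6, 32.4 and 42.4 CPM in PoWeR libraries (0.83 ± 0.16, edgeR adjusted p = 0.0270). Aox1, an aldehyde oxidase, had 49.8, 42.5, 39.5 and 41.1 against 67.3, 76.5, 70.6 and 95.5 CPM (0.85 ± 0.17). Cyp27a1, the sterol 27-hydroxylase of mitochondria, had 5.89, 6.29, 7.80 and 5.39 against 13.9, 11.3, 14.5 and 10.5 CPM (0.99 ± 0.18). PoWeR replicate 3 was lowest of its group for H6pd and highest for Cyp27a1. Of 19 genes of lipid synthesis none passed, and the median was 0.06.

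Vegfa (chromosome 17, 46016993 to 46032369, minus strand) had 117, 136, 121 and 116 CPM in sedentary and 65.9, 63.2, 72.0 and 64.1 CPM in PoWeR libraries. Each group was narrow and they were well apart. The mean fell from 123 ± 9.29 to 66.3 ± 3.98 CPM, a log2 change of -0.88 ± 0.16 (edgeR adjusted p = 0.0270), with -0.91 within the low-share and -0.78 within the high-share libraries. Of 21 angiogenic factors and receptors Vegfa was the only call, and of 16 hypoxia-inducible factor targets likewise. The medians were -0.21 and -0.12. Kdr, the main receptor of Vegfa on endothelium, had 39.1, 34.2, 28.3 and 52.8 against 23.5, 20.2, 26.4 and 26.6 CPM, with no overlap but an edgeR adjusted p of 0.105. Fgf1 had 124, 117, 126 and 114 against 95.7, 81.8, 87.9 and 84.9 CPM and passed in the 16 young libraries (adjusted p = 0.0217) but not in the fit of 17 (0.357). Endothelial markers summed to 399 to 485 CPM in sedentary and 334 to 433 CPM in PoWeR libraries, none of 13 was called, and their part in the Vegfa result was not tested.

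Atf5, a transcription factor of the integrated stress response (chromosome 7, 44812256 to 44816658, minus strand), had 278, 255, 161 and 231 CPM in sedentary and 148, 104, 158 and 130 CPM in PoWeR libraries. Sedentary replicate 3 lay just above PoWeR replicate 3, and the log2 change was -0.76 ± 0.16 (edgeR adjusted p = 0.0473). Atf5 overlaps Nup62 and Il4i1 on the opposite strand, and the strand used in counting is not given in the sources used here. Atf4, which acts upstream, had 128, 121, 105 and 129 against 107, 89.4, 112 and 84.0 CPM, with overlap. Of 19 genes of that response Atf5 was the only call, with a median of -0.26 in these libraries.

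Padi2, which converts arginine to citrulline in proteins (chromosome 4, 140906344 to 140952586), had the lowest adjusted p of the falls. It had 121, 148, 170 and 148 CPM in sedentary and 70.1, 46.0, 72.6 and 71.2 CPM in PoWeR libraries (-1.17 ± 0.20, edgeR adjusted p = 0.0175). Efcab6, an EF-hand calcium-binding gene (chromosome 15, 83866712 to 84065379), had 18.1, 21.1, 26.7 and 22.9 against 8.03, 7.55, 12.7 and 6.67 CPM (-1.34 ± 0.26). For both genes sedentary replicate 3, a low-share library, was the highest. With the repeat class as a term neither was called (edgeR adjusted p = 0.0745 and 0.133).

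Smaller falls were those of the zinc finger gene Zfp770, the nucleoporin Nup133 and the channel tetramerisation domain gene Kctd9. Zfp770 had 69.96, 79.9, 84.2 and 87.6 CPM in sedentary and 49.6, 38, 53.6 and 47.9 CPM in PoWeR libraries (-0.76 ± 0.16). Nup133 had 33.5, 35.7, 40.1 and 37.0 against 23, 21.2, 29.7 and 19.6 CPM (-0.64 ± 0.12), and was the only call of 25 nuclear pore genes, whose median was 0.08. Kctd9 had 85.1, 93.8, 91.4 and 77.8 against 62.7, 60.0, 57.5 and 65.3 CPM (-0.49 ± 0.10). The groups of all 3 were separate, with PoWeR replicate 3 nearest to the sedentary libraries for Zfp770 and Nup133. Their edgeR adjusted p values were 0.0473, 0.0270 and 0.05.

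A pair of non-coding features also fell. Gm15179, annotated antisense to the intermediate filament gene Des, had 1.91, 1.73, 1.77 and 1.87 CPM in sedentary and 0.874, 0.436, 0.980 and 0.765 CPM in PoWeR libraries. The pseudogene Gm6204 had 51.6, 70.6, 34.1 and 57.1 against 22.9, 21.5, 30.3 and 23.0 CPM, and it also differed between the muscle labels. Reads of Des and of the parent of Gm6204 could enter these counts. Vmn2r57 and Gm47140 rose as well, at means under 1 CPM in both groups. Of the 34 called genes, 18 overlap another annotated gene on the opposite strand.

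Genes of oxidative phosphorylation were lower on average in the PoWeR libraries and in the libraries with a low repeat share, without a call. All 53 nuclear respiratory chain genes tested had a negative log2 fold change, with a median of -0.36 beside 0.01 over all genes, yet none passed the test and none separated the groups. Their mean log2 level, relative to the sedentary mean, was 0.26, 0.29, -0.64 and 0.09 in the sedentary and -0.49, -0.66, 0.07 and -0.40 in the PoWeR libraries. Sedentary replicate 3 and PoWeR replicates 1, 2 and 4, the low-share libraries, were thus the 4 low ones. By complex, the medians were -0.38 for complex I, -0.31 for complexes II and III, -0.39 for complex IV and -0.31 for complex V.

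The 13 mitochondrially encoded mRNAs followed the same order. Their mean log2 level was 0.37, 0.27, -0.77 and 0.12 in sedentary and -0.53, -0.55, -0.03 and -0.22 in PoWeR libraries, with a median fold change of -0.36 and no call. Within the low-share libraries the median PoWeR difference was 0.29 for these and 0.08 for the nuclear genes, and within the high-share libraries it was -0.31 and -0.13. With the repeat class as a term the medians became -0.01 and -0.04. Without sedentary replicate 3, 5 of the 53 nuclear genes passed as lower, as did 133 of all 15505 genes tested. The median of the 53 was then -0.49. Without PoWeR replicate 3, 1 of the 53 passed as lower, as did 63 of 15532 genes, and their median was -0.53. In young soleus 8 of the 53 nuclear genes fell, with a median of -0.63, and 6 of the 13 mitochondrially encoded ones, with a median of -0.82, where 2.31% of all genes fell. The soleus repeat share was 1.27 to 2.04% in the sedentary libraries, and 0.422% in PoWeR replicate 3 and 1.40 to 2.09% in the other PoWeR libraries. The interaction, labelled plantaris minus soleus, had medians of 0.22 and 0.45 over these lists, and no member was called.

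Cox4i1, a core subunit of complex IV, had 629, 647, 303 and 560 CPM in sedentary and 338, 301, 469 and 394 CPM in PoWeR libraries. Sdhb of complex II had 397, 446, 242 and 371 against 225, 184, 335 and 247 CPM, and the ATP synthase subunit Atp5j 288, 292, 141 and 270 against 146, 121, 221 and 159 CPM. In each the sedentary replicate 3 lay among the PoWeR libraries, and PoWeR replicate 3 was the highest of its group. Their edgeR adjusted p values were 0.323, 0.295 and 0.247.

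**Figure D3:**
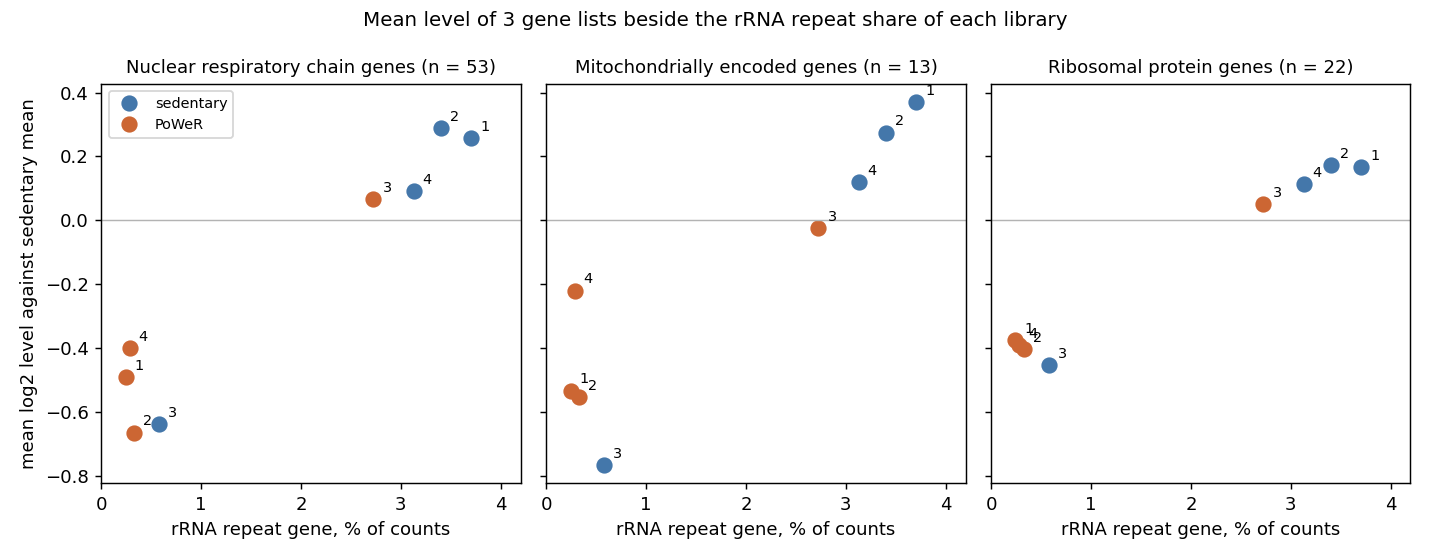
Mean log2 level of the members of 3 gene lists relative to the sedentary mean (y axis) against the share of counts held by the rRNA repeat gene (x axis, %), 1 point per library with its replicate number. In every panel the 4 libraries under 0.7%, sedentary replicate 3 among them, lie below 0, and PoWeR replicate 3 lies near the other sedentary libraries.

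Other lists of mitochondrial fuel use stood lower by less. All 16 genes of the TCA cycle had negative fold changes, with a median of -0.22, and 23 of 25 genes of fatty acid use, with a median of -0.32. None passed. Unlike those of the nuclear respiratory chain as a whole, their medians stayed negative within the low-share libraries, at -0.17 and -0.26. The high-share values were -0.09 and -0.11. The low-share values rest on sedentary replicate 3 alone. With the repeat class as a term the medians were -0.12 and -0.18. Ech1, an isomerase of fatty acid oxidation, had 354, 349, 341 and 305 CPM in sedentary and 204, 177, 296 and 200 CPM in PoWeR libraries, with no overlap and an edgeR adjusted p of 0.14. Idh3a, a subunit of isocitrate dehydrogenase, had 315, 362, 312 and 292 against 246, 227, 261 and 239 CPM, also without overlap (adjusted p = 0.315). Perm1, a muscle regulator of mitochondrial genes, had 727, 784, 741 and 721 against 513, 393, 583 and 418 CPM. It passed in the 16 young libraries (-0.64 ± 0.13, adjusted p = 0.0158) but not in the fit of 17 (0.205).

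Ribosomal protein genes showed the repeat-share order too: 20 of 22 had negative fold changes, the median was -0.28, and none was called. Glycolysis and glycogen genes had a median of -0.06 over 23 genes with no call. Ldha, lactate dehydrogenase, had 570, 661, 544 and 560 CPM in sedentary and 378, 338, 450 and 364 CPM in PoWeR libraries, with no overlap and an adjusted p of 0.157 by edgeR.

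Of the lists of signals and stress, that of glucocorticoid and fasting genes had the largest median of any list with 10 or more genes tested, 0.54 over 16 genes, with 13 positive and none called. Klf9, a steroid-responsive repressor, had 206, 221, 238 and 275 CPM in sedentary and 337, 368, 310 and 321 CPM in PoWeR libraries. Klf15, which governs amino acid use in fasting, had 48.8, 46.1, 61.9 and 55.0 against 85.2, 124, 84.1 and 71.6 CPM. Both were separate between the groups, but edgeR gave adjusted p = 0.236 for Klf9 and 0.162 for Klf15. Among the 16 young libraries Klf9 passed (0.0336). Within the high-share libraries the list's median was 0.05, and within the low-share ones 0.64. The atrophy list had a median of 0.27 over 19 genes with no call, and Foxo3 had 67.0, 67.5, 83.3 and 79.6 against 114, 146, 77.4 and 97.9 CPM.

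Lists without a call in either direction also included calcineurin and activity signalling (20 genes), regulators of mitochondrial biogenesis (18), growth signalling (19), immediate early genes (23), heat shock (21), antioxidant genes (24), the circadian clock (19), ribosome biogenesis (21), satellite cell genes (13) and the developmental and stretch sarcomere list (12). Of the last, Mybph, a myosin binding protein, had 4.82, 1.62, 2.19 and 1.15 CPM in sedentary and 8.70, 67.2, 8.77 and 8.59 CPM in PoWeR libraries. It was separate between the groups, but PoWeR replicate 2 was far above the rest, and the edgeR adjusted p was 0.0734. Egr1, an immediate early factor, had 15.6, 32.0, 21.6 and 20.6 against 5.84, 5.36, 3.55 and 9.31 CPM (adjusted p = 0.181, and 0.0158 in the 16 young libraries).

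Markers of cells other than fibres gave no call in any of 12 lists. Fibro-adipogenic progenitor markers summed to 589 to 1288 CPM in sedentary and 1002 to 1815 CPM in PoWeR libraries, matrix genes to 842 to 1599 and 712 to 1657 CPM, and macrophage markers to 45.3 to 99.5 and 63.5 to 111 CPM. The ranges overlap in every case. Neutrophil markers summed to at most 2.53 CPM and lymphocyte markers to at most 0.678 CPM in any of the 8 libraries, with Elane and Cd8a at 0 throughout.

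The same contrast in young soleus was set beside these values. There 660 of 15132 genes passed (4.36%, with 2.05% higher and 2.31% lower). Of the 34 genes called in the libraries labelled plantaris 33 were tested there, all 33 with the same direction and 23 past the threshold. Of all genes tested in both, 72.5% had the same direction. Some of the numbers in the names of the young libraries recur between the 2 muscle labels, most of them in other combinations. The names of sedentary replicate 1 hold the same digits under both labels. Whether the libraries share mice is not stated, and the tests treat them as separate, so the soleus values are not shown to come from other animals. Nrcam averaged 0.827 ± 0.170 CPM in sedentary and 7.31 ± 3.33 CPM in PoWeR soleus (SD, n = 4 and 4), Abat 19.1 ± 2.28 and 53.1 ± 12.5 CPM, and Vegfa 140 ± 34.4 and 67.8 ± 5.03 CPM. Myl6b, Cyp27a1, H6pd, Atp2b3, Cep97, Kctd9, Slx1b, Gm15179, Gm6204 and Vmn2r57 were those that did not pass in soleus.

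Whether the response differed between the labels was tested by the interaction in the 16 young libraries. None of 15132 genes passed in edgeR (0%; 445 had an unadjusted p under 0.05), nor in DESeq2 (519). With the repeat class as a term in edgeR none passed either, but 1584 had an unadjusted p under 0.05. The values that follow are from the edgeR fit without that term. For the called genes the difference in log2 fold change, labelled plantaris minus soleus, ran from -0.53 to 2.56 with a median of 0.10. For Nrcam it was 0.06, with an approximate 95% interval of -1.08 to 1.21, and for Sh2d4a -0.03 (-0.64 to 0.57). It was 0.15 for Vegfa (-0.21 to 0.51) and 0.21 for Pln (-1.19 to 1.61). The intervals were built from the SE with a normal quantile, which makes them somewhat too narrow for 16 libraries. These intervals include 0 and also sizeable differences, so they do not show that the responses were equal. The widest gap was that of Vmn2r57 (2.56, 0.73 to 4.40), a gene under 1 CPM on average. Among the genes with the smallest p in either direction were the pseudogenes Gm8934, Gm13331 and BC085271 and the intronic transcript Gm29170, with sedentary means of 2.29, 1.57, 0.729 and 4.18 CPM.

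**Figure D4:**
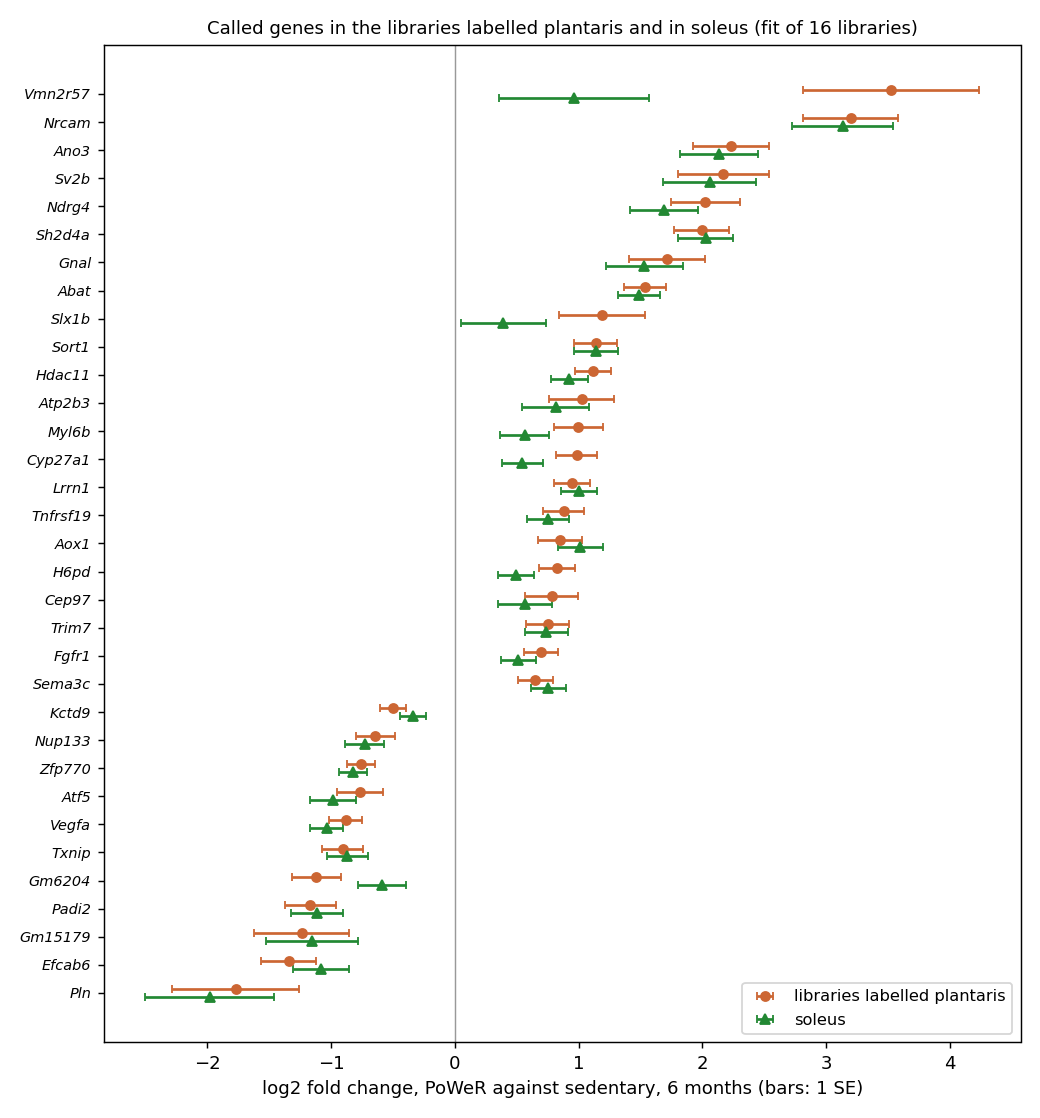
Log2 fold change, PoWeR against sedentary (x axis, bars 1 SE), in the libraries labelled plantaris (circles) and in soleus (triangles) for the 33 called genes tested in both (y axis), from the fit of the 16 young libraries. All 33 lie on the same side of 0 in both, and the bars of Vmn2r57 are the furthest apart.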

How the data were processed

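The authors deposited a table of expected counts for 23011 genes in 34 libraries. Per the submitters' processing notes, STAR 2.7.3a, Partek, DESeq2 and mm10 were used, with no role stated. The quantifier and the strand of counting are not given in the sources used here. Of the deposited values 25.7% are not whole, and they were rounded. Genes were tested with edgeR 4.0.16 (quasi-likelihood, TMM, a minimum count of 10 and total of 15), in R 4.3.3, on the 17 libraries labelled plantaris, and on the 16 young libraries for soleus and the interaction. CPM used TMM factors of all 34 libraries. DESeq2 1.42.0, limma 3.58.1, other filters and scalings, and terms for the rRNA repeat share were alternatives. Shares were compared by exact permutation (scipy 1.17.1). Positions are GRCm38 as the table gives them. The procedure was tested on simulated data.

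Gene lists and comparisons were chosen with earlier results of these data known. Named genes were up to 20 rises and 20 falls past an adjusted p of 0.05 with a mean of at least 1 CPM, up to 4 called or 2 uncalled genes per list, fibre genes and the pump peptides. Other genes, such as Scn4a, Slc2a4, Arrdc4, Fgf1, Atf4, Sema3c, Vmn2r57, Gm47140 and Cep85l, were chosen after their values were seen. Counts differed beyond sampling noise in all 12 pairs of libraries within the groups, so none was counted as a repeat; this does not show that they come from separate animals.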

Additional observations from a re-analysis of the deposited data

Results flagged for a closer look

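In 9 of 82 groups of 4 libraries, 1 library stood apart from the other 3 by Dixon's criterion, where chance gives about 1 in 20. The groups are drawn from the same 8 libraries and are not independent, so that rate is only a rough guide. The criterion was not applied to every gene and share named above, Mybph among those left out. Sv2b was 15.2 CPM in PoWeR replicate 2 and 6.12 to 6.93 CPM in the others, and Padi2 was 46.0 CPM there against 70.1 to 72.6 CPM. Fgfr1 was 63.8 CPM in PoWeR replicate 3 and 76.8 to 78.5 CPM in the others, and the pseudogene Gm6204 was 30.3 CPM there against 21.5 to 23.0 CPM. The share of the rRNA repeat gene CT010467.1 was 2.73% in PoWeR replicate 3 and 0.242 to 0.326% in the others.

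Among sedentary libraries, Myl6b was 132 CPM in replicate 1 and 83.6 to 88.2 CPM in the others. Trim7 was 48.8 CPM in replicate 3 against 42.1 to 43.1 CPM. In replicate 3 the ribosomal protein share was 0.547% against 0.722 to 0.756%, and the share of slow sarcomere genes was 5.29% against 4.68 to 4.77%.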

How the results depend on the processing

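The count of genes called with PoWeR (34) was 225 with DESeq2, 1369 with limma, 87 in a fit of only the 8 libraries, 175 in the 16 young libraries, 138 there with the rRNA repeat term (an alternative chosen after seeing the data), 1 with that term in the 17 libraries and 0 with the log2 share as a term (edgeR, 1118 genes at an unadjusted p under 0.05). Leaving out 1 library gave 1 to 227. The cause was not tested. With RLE factors (31), no filter (35), a 5 CPM filter (38) or the rRNA rows removed (34), it stayed close. The split of higher to lower calls was 126 to 99 with DESeq2, 571 to 798 with limma and 57.9% higher with the 5 CPM filter, against 67.6% in the fit of 17. Calls between the muscle labels (493) numbered 1098 with DESeq2, 787 with the repeat term and 109 to 358 without 1 library.

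The difference in the fast sarcomere share (-0.0645 percentage points) ran from -0.249 to 0.0581 over the fits without 1 library, above 0 without sedentary replicate 2 (0.0271), sedentary 3, PoWeR 1 (0.00475) or PoWeR 4 (0.0181). That of the Myh1 share (-0.71, range -2.78 to 0.546) was 0.546 without sedentary 3, 0.206 without PoWeR 2 and 0.540 without PoWeR 4, and that of Myh2 (-0.912, range -2.86 to 1.07) was 0.311 without PoWeR 1 and 1.07 without PoWeR 3. Uncalled genes that reversed on the log2 scale were Cilp2 (-0.42 with the log2 share term), Cma1 (-0.27) and Ms4a1 (-0.35) with limma, Ms4a1 (-1.48) without PoWeR 3 (up to 2.61 without other libraries), Dkc1 (0.049) without sedentary 3 (down to -0.40 without others) and Hbb-bs (0.0090) in the 16 young libraries with the repeat term. No paired analysis was run for the 6-month comparisons. Numbers in their library names recur between the muscle labels, but whether these mark mice is not stated. The tests between labels and of the interaction thus leave out any sharing of mice. Aged plantaris and soleus share numbers: with the replicate block, added after seeing the data, 5218 genes were called between them against 4871 without it. The deviations of same-numbered libraries correlated at 0.0194 to 0.244, and 15 of 18 libraries correlated best with their own number. Depth limits genes near 1 CPM, such as Vmn2r57 and Gm47140.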

Other observations

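In the fit of the 16 young libraries 175 of 15132 genes passed (1.16%), of which 102 also passed with the rRNA repeat term. Of these 102, 79 were not called in the fit of the 17 libraries labelled plantaris, 45 higher and 34 lower with PoWeR. In young soleus 54 of the 79 also passed, where 4.36% of all genes did. Both contrasts come from the same fit, and whether the libraries share mice is not stated. The genes below were picked from these 79 after their values were seen, and they were not called in the fit of 17.

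Higher with PoWeR in the 16 young libraries were the following. Fbxo32, a ubiquitin ligase of muscle atrophy, had 472, 547, 617 and 438 CPM in sedentary and 791, 891, 786 and 794 CPM in PoWeR libraries (0.66 ± 0.12, edgeR adjusted p = 0.00873 in the 16). Igfbp5, a binding protein of insulin-like growth factors, had 166, 233, 241 and 236 against 481, 337, 340 and 414 CPM (0.85 ± 0.16). Mettl21e, a muscle lysine methyltransferase, had 0.785, 1.93, 2.45 and 1.57 against 7.23, 14.8, 8.03 and 8.59 CPM. The groups of all 3 genes were separate.

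Also higher there was Ucp2, a mitochondrial carrier, which had 37.2, 20.1, 19.7 and 24.1 CPM in sedentary and 76.2, 145, 76.1 and 71.8 CPM in PoWeR libraries (1.87 ± 0.29). The clock output factors Dbp (0.76 ± 0.14) and Tef (0.47 ± 0.09) were also higher in the 16, where 3 of 19 clock genes passed against none in the fit of 17, with Tef at 204 to 229 CPM in sedentary and 292 to 313 CPM in PoWeR libraries. Uchl1, a deubiquitinase abundant in neurons, had 15.2, 11.7, 5.39 and 11 against 26.6, 26.5, 32.8 and 24.7 CPM.

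Lower with PoWeR in the 16 were Atp1b1, a sodium pump subunit, Ostn and Abra. Atp1b1 had 511, 550, 486 and 542 CPM in sedentary and 357, 279, 373 and 276 CPM in PoWeR libraries (-0.70 ± 0.12). Ostn, the secreted peptide musclin, had 79.1, 76.3, 93.5 and 77.0 against 38, 25.3, 51.1 and 47.6 CPM (-1.004 ± 0.19). Abra, an actin-binding activator of transcription, had 450, 342, 340 and 360 against 228, 199, 244 and 168 CPM (-0.83 ± 0.16).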
